A study of Mus musculus with 8 samples.

Results

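The activin, follistatin and Tgf-beta genes examined here are 10 genes of mouse: the activin subunits Inhba and Inhbb, the ligands Gdf11, Tgfb1, Tgfb2 and Tgfb3, the secreted proteins Fst and Fstl1, the receptor Acvr2b and the inhibitory Smad Smad7. They were taken by their gene names from whole-genome arrays and are represented by 11 probes on 20 spots, out of 41174 probes on 43379 non-control spots for 27828 names. All 10 passed the filter on dim probes, which 18503 genes of the array passed.

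Activins are dimers of inhibin beta subunits, and Tgf-beta proteins and Gdf11 are related dimeric ligands. All bind a type II receptor, which for activins and Gdf11 can be Acvr2b. The type II receptor activates a type I receptor that phosphorylates Smad2 and Smad3, and these enter the nucleus with Smad4. Follistatin binds activins outside the cell and keeps them from the receptor, and Smad7 acts at the type I receptor as a feedback inhibitor. In the mouse pancreas, activin receptors and Gdf11 are known for their part in patterning and in the number of endocrine progenitors, and follistatin is known as a product of the mesenchyme around the epithelium.

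The arrays compared MUT with WT dorsal pancreatic epithelium, dissected by hand from mouse embryos at e12.5, and the comparison asks which genes depend on the transcription factor Sox9, which pancreatic progenitors express. MUT embryos were Sox9fl/fl; Pdx1-Cre, with floxed Sox9 alleles from a mixed FVB/N x C57Bl/6J background and a Pdx1-Cre transgene from C57Bl/6J, in which the Pdx1 promoter drives Cre in the pancreatic epithelium. WT embryos were their Sox9fl/fl littermates, which carried the same floxed alleles and no Cre. Each of the 4 MUT and 4 WT samples was RNA pooled from 3 embryos, with about 250 ng labelled for 1 single-colour array. Since every MUT pool and no WT pool carried Cre, loss of Sox9 and Cre itself cannot be told apart. The series' design text gives 3 biological replicates where 4 arrays per genotype were used here, and p-values measure the spread between these pools.

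Between 59.4% and 75.3% of spots were well above background on the MUT arrays and between 62.4% and 77.7% on the WT arrays, and the number of arrays limits the precision. The arrays lay on 3 slides, each holding both genotypes, and no pair of arrays held identical values. A log2 signal of 0 stands for the array's own 75th percentile of processed signal. Sox9 had log2 signals of -0.61, -1.79, -0.0057 and 0.77 in MUT replicates 1 to 4, against 3.01, 2.13, 1.82 and 2.19 in WT replicates 1 to 4, and fell by 2.70 (SE 0.517, adjusted p = 0.0253 in limma). Its difference stayed below 0 under all 21 alternatives and passed under 13, including 4 of the 8 that left out 1 array. The mean log2 level of 3 Y-linked genes was between -1.87 and -0.17 in MUT pools, against -6.58, -6.44 and -5.19 in WT replicates 4, 1 and 2 and -1.13 in WT replicate 3, so the sex of the embryos was in part confounded with genotype. Genes of liver plasma proteins averaged 0.50 and 1.12 in MUT replicates 1 and 2 and -0.48 in both MUT replicates 3 and 4, against -1.80 to -0.99 in WT pools. Of the 9 tested, 4 rose (adjusted p under 0.05 in limma) and 5 did not pass, 1 of them with a difference below 0.

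Markers of other cell types moved with genotype. The mean level of 20 epithelium markers was between -1.33 and 0.012 in MUT pools, against 0.97 to 1.34 in WT pools, and 17 of the 20 fell. The 12 pancreatic progenitor markers averaged -2.17 to -0.59 in MUT pools, against 0.64 to 1.27 in WT pools, and 11 fell. The 17 mesenchyme markers tested averaged 2.56 to 3.04 in MUT pools, against 2.13 to 2.37 in WT pools. Of these, 4 rose and none fell, and all 17 were well above background on every array of both genotypes, although the tissue is labelled as epithelium. Means of 12 endothelium markers were 1.24 to 1.59 in MUT pools, against 0.85 to 1.08 in WT pools (2 rose), and means of 9 mesothelium markers were -0.75 to -0.25, against -1.58 to -1.18 (2 rose). Means of 12 macrophage and leukocyte markers were 0.62 to 1.05 in MUT pools, against 0.084 to 0.35 in WT pools (5 rose). The 8 neural crest and glia markers tested averaged -1.73 to -1.24 in MUT pools, against -0.64 to -0.29 in WT pools, and 4 fell. None of these marker lists overlapped between the genotypes in its mean. The part of these shifts in the results on the 10 genes was not tested. In bulk tissue, fewer cells of a type and less RNA per cell cannot be told apart.

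None of the 10 genes passed an adjusted p of 0.05 in limma, where 5.37% of all genes tested did (1.56% were higher and 3.82% lower in MUT pools). Before adjustment, p was under 0.05 for 6 of the 10, of which 5 had higher and 1 had lower MUT means, and for 18.8% of all genes. MUT means were above WT means for 8 of the 10, with a median log2 difference of 0.48, against 52.8% and a median of 0.016 over all genes tested. The genotypes did not overlap for Tgfb1, Tgfb3, Fstl1 and Inhbb, 4 of 10 genes, all with higher MUT values. Of all genes tested, 15.2% were without overlap in either direction and 7.23% with higher MUT values. The 10 genes were chosen with earlier results of these data known, so their shares are a description and not a test. On the authors' deposited value table, 2 of the 10 passed, and 3 did so when slide was a block in the fit. Calls over all genes were also more frequent under these settings, at 7.09% on that table and 6.98% or 8.26% with slide as a fixed or random block.

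**Figure D1:**
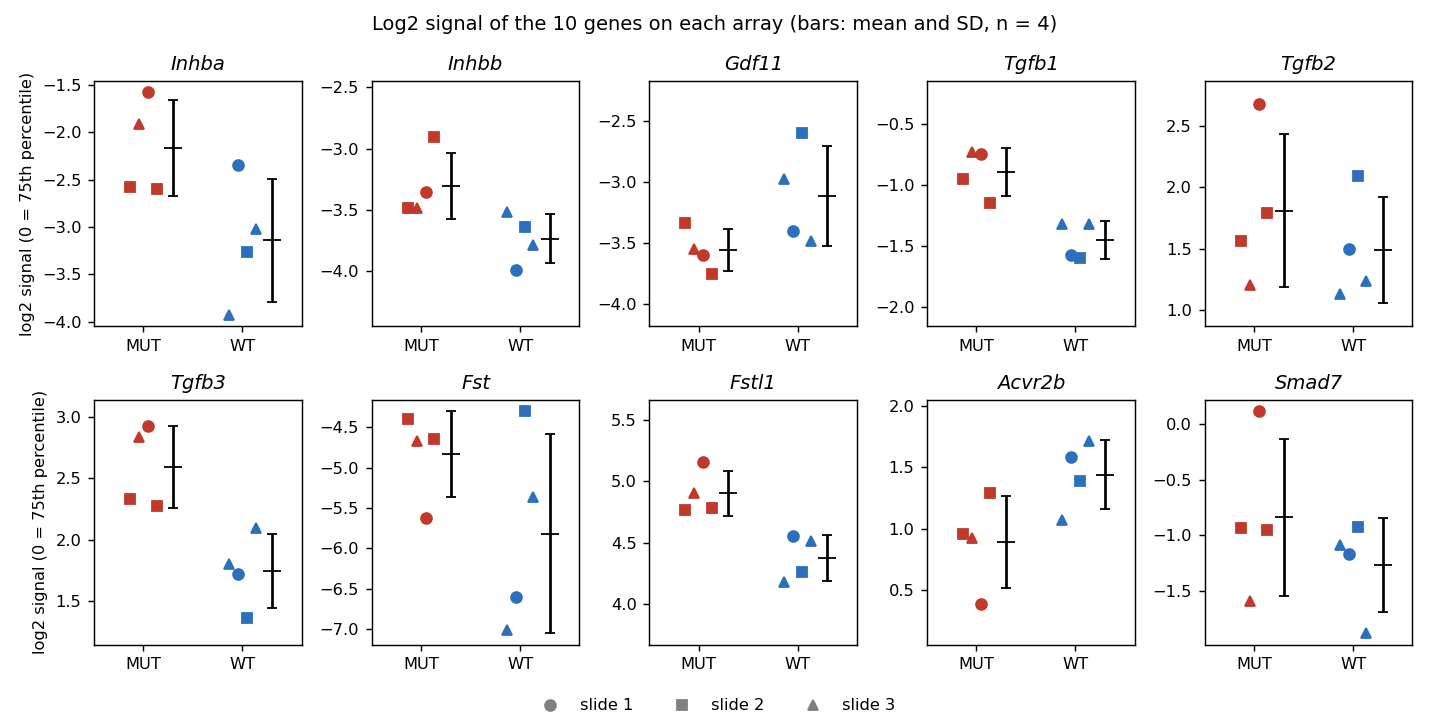
Log2 signal of each of the 10 genes on each array (vertical axis, 0 is the array's 75th percentile), MUT at left and WT at right. Points are arrays, point shapes are slides, and bars give the mean and SD (n = 4). The MUT points of Tgfb1, Tgfb3, Fstl1 and Inhbb lie above every WT point, while the genotypes overlap for the other 6 genes.

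Tgfb1 encodes a ligand that is secreted in a latent complex and has broad effects on matrix production and growth arrest. Its probe lies at chr7:25413618-25413677 (mm8, plus strand), and its 60 bases are shown because this probe came closest to the threshold and was printed on 10 spots of every array:
Tgfb1: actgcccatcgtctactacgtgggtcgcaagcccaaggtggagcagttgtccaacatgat
Log2 signals of Tgfb1 were -0.95, -0.73, -0.75 and -1.15 in MUT replicates 1 to 4, against -1.32, -1.58, -1.60 and -1.32 in WT replicates 1 to 4. Every MUT array lay above every WT array, with MUT replicate 4 just above WT replicate 1. The SD among the 10 spots within an array was between 0.024 and 0.074, below the SD between arrays of a genotype. Means were -0.89 ± 0.20 in MUT pools and -1.45 ± 0.15 in WT pools (SD, n = 4 each). The log2 difference was 0.56 (SE 0.136, 95% interval 0.25 to 0.87), which is 1.47-fold, with an adjusted p of 0.0549 in limma. A two-sided exact permutation test gave p = 0.0286, the lowest value possible with 4 arrays per genotype. Complete separation of the genotypes always gives this p, so here and for Tgfb3, Fstl1 and Inhbb below it restates the lack of overlap. It is not adjusted for the number of genes, and 15.2% of all genes tested were without overlap. Within slides 1, 2 and 3 the difference was 0.83, 0.55 and 0.59. With slide as a fixed block Tgfb1 passed (0.64, adjusted p = 0.0264 in limma).

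Tgfb3, a related ligand known from palate closure in the mouse, had the largest difference among the 3 Tgf-beta ligands measured. Its probe at chr12:86945957-86946016 (mm8, minus strand) is given by its first 30 bases, since it is the other probe next to the threshold:
Tgfb3: tcccatgtctgacatgatgactcggcccca
Log2 signals were 2.33, 2.84, 2.93 and 2.27 in MUT replicates 1 to 4, against 1.80, 1.72, 1.36 and 2.09 in WT replicates 1 to 4. The lowest MUT array, replicate 4, lay just above the highest WT array, also replicate 4. Means were 2.59 ± 0.34 in MUT pools and 1.74 ± 0.30 in WT pools (SD, n = 4 each), a log2 difference of 0.85 (SE 0.211, 95% interval 0.36 to 1.33) or 1.80-fold. Limma gave an adjusted p of 0.0589, and the exact permutation p was 0.0286. Differences within slides 1, 2 and 3 were 1.20, 0.95 and 0.89. Tgfb3 passed with slide as a fixed block (adjusted p = 0.0148 in limma) and on the authors' deposited value table (0.77, adjusted p = 0.0218 in limma).

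Tgfb2, the third Tgf-beta ligand, spread widely within both genotypes. Its log2 signals were 1.56, 1.21, 2.68 and 1.79 in MUT replicates 1 to 4, against 1.13, 1.50, 2.09 and 1.23 in WT replicates 1 to 4. MUT replicate 3 was the highest array and WT replicate 3 the next, so that the genotypes overlapped. Tgfb2 averaged 1.81 ± 0.63 in MUT pools and 1.49 ± 0.43 in WT pools (SD, n = 4 each). The difference on the log2 scale was 0.32 (SE 0.335, 95% interval -0.45 to 1.09, adjusted p = 0.742 in limma), and within slides 1, 2 and 3 it was 1.18, -0.41 and 0.024. It was 0.033 without MUT replicate 3.

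Inhba encodes the beta-A subunit, which forms activin A as a homodimer. Its probe at chr13:15817688-15817747 (mm8, plus strand) is shown with the 2 Inhbb probes, at chr1:121243052-121243111 and chr1:121245386-121245445 (mm8, minus strand), because the Inhbb probes disagreed; the first Inhbb probe is given by its first 30 bases:
Inhba: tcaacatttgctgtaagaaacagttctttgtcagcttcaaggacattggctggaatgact
Inhbb probe 1: cataataacttaaaaccaaagaattttccc
Inhbb probe 2: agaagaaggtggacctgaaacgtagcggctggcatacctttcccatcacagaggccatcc
Inhba had log2 signals of -2.58, -1.91, -1.58 and -2.60 in MUT replicates 1 to 4, against -3.93, -2.35, -3.27 and -3.02 in WT replicates 1 to 4. WT replicate 2 reached above MUT replicates 1 and 4, and the other WT arrays lay below every MUT array. Means were -2.17 ± 0.51 in MUT pools and -3.14 ± 0.65 in WT pools (SD, n = 4 each). The log2 difference of 0.97 (SE 0.363, 95% interval 0.14 to 1.81) is 1.96-fold. At least as large a difference, in either direction, was seen for 5.01% of all genes tested. Limma gave an adjusted p of 0.184 and the exact permutation p was 0.0857, while the values within slides 1, 2 and 3 were 0.77, 0.68 and 1.56.

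Inhbb encodes the beta-B subunit, which forms activin B. Probe 1, which had the higher mean signal and stands for the gene, gave -3.48, -3.48, -3.35 and -2.91 in MUT replicates 1 to 4, against -3.52, -3.99, -3.64 and -3.79 in WT replicates 1 to 4. The genotypes did not overlap, but MUT replicates 1 and 2 lay close to WT replicate 1. Inhbb averaged -3.30 ± 0.27 in MUT pools and -3.73 ± 0.20 in WT pools (SD, n = 4 each), a log2 difference of 0.43 (SE 0.168, 95% interval 0.045 to 0.81, adjusted p = 0.206 in limma). By exact permutation p was 0.0286, and within slides 1, 2 and 3 the difference was 0.64, 0.45 and 0.17. Probe 2, which starts 2334 bases from probe 1, was well above background on only 2 MUT and 3 WT arrays. It gave -3.99, -4.58, -4.95 and -6.57 in MUT replicates 1 to 4, against -4.36, -5.94, -2.47 and -4.69 in WT replicates 1 to 4. Its MUT minus WT difference was -0.65 (SE 0.772, adjusted p = 0.813 in limma over all kept probes), opposite in sign to that of probe 1, and its genotypes overlapped. The mean of both probes gave -0.11.

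Gdf11, a ligand close to myostatin that signals through type II activin receptors, was 1 of the 2 genes with lower MUT means. Log2 signals were -3.34, -3.55, -3.60 and -3.75 in MUT replicates 1 to 4, against -2.97, -3.40, -2.60 and -3.49 in WT replicates 1 to 4. The MUT arrays lay close together, and WT replicates 2 and 4 fell within their range. Gdf11 averaged -3.56 ± 0.17 in MUT pools and -3.11 ± 0.41 in WT pools (SD, n = 4 each). The difference on the log2 scale was -0.44 (SE 0.208, 95% interval -0.92 to 0.033, adjusted p = 0.304 in limma), and -0.19, -0.95 and -0.32 within slides 1, 2 and 3. The exact permutation p was 0.0857.

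Fst encodes follistatin, the activin antagonist, and was close to the background of the arrays. Its processed signal, in the scanner's linear units, was 29.1, 20.6, 8.40 and 25.0 in MUT replicates 1 to 4, against 2.87, 6.37, 26.8 and 15.6 in WT replicates 1 to 4. Only 3 MUT arrays and 1 WT array measured it well above background. On the log2 scale these values were -4.40, -4.66, -5.62 and -4.64 in MUT pools, against -7.02, -6.61, -4.30 and -5.36 in WT pools. WT replicate 3 was the highest array of all. Fst averaged -4.83 ± 0.54 in MUT pools and -5.82 ± 1.24 in WT pools (SD, n = 4 each). The log2 difference of 0.99 (SE 0.581, 95% interval -0.34 to 2.32) had an adjusted p of 0.440 in limma and an exact permutation p of 0.257. Within slides 1, 2 and 3 it was 0.99, -0.22 and 1.53.

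Fstl1 encodes a secreted glycoprotein of the follistatin family that is abundant in mesenchymal cells. The first 30 bases of its probe at chr16:37754746-37754805 (mm8, plus strand) are shown as those of the third gene that passed with slide as a block:
Fstl1: agattttcctgcataggaaagtgtggaatg
Log2 signals were 4.77, 4.91, 5.16 and 4.78 in MUT replicates 1 to 4, against 4.17, 4.55, 4.26 and 4.52 in WT replicates 1 to 4. Every MUT array lay above every WT array. Means were 4.90 ± 0.18 in MUT pools and 4.37 ± 0.19 in WT pools (SD, n = 4 each), a log2 difference of 0.53 (SE 0.140, 95% interval 0.21 to 0.85) or 1.44-fold. Limma gave an adjusted p of 0.0720, and the exact permutation p was again 0.0286. Differences within slides 1, 2 and 3 were 0.61, 0.51 and 0.56, and slide as a fixed block gave 0.56 (adjusted p = 0.0433 in limma). The mesenchyme markers, given above, had a median log2 difference of 0.67.

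Acvr2b encodes a type II receptor for activins and Gdf11, and its MUT mean was below its WT mean. Its probe spans chr9:119277251-119278606 (mm8, plus strand), longer than its 60 bases. Log2 signals were 0.96, 0.92, 0.38 and 1.29 in MUT replicates 1 to 4, against 1.07, 1.59, 1.39 and 1.72 in WT replicates 1 to 4. MUT replicate 3 was the lowest array, and MUT replicate 4 alone lay above WT replicate 1. Acvr2b averaged 0.89 ± 0.38 in MUT pools and 1.44 ± 0.28 in WT pools (SD, n = 4 each). The difference on the log2 scale was -0.55 (SE 0.217, 95% interval -1.05 to -0.054, adjusted p = 0.210 in limma), with an exact permutation p of 0.0571. It was -1.20, -0.27 and -0.47 within slides 1, 2 and 3.

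Smad7, itself a target of Tgf-beta signalling in many cells, overlapped between genotypes. Its log2 signals were -0.94, -1.59, 0.12 and -0.95 in MUT replicates 1 to 4, against -1.08, -1.17, -0.92 and -1.88 in WT replicates 1 to 4. MUT replicate 3 stood above all other arrays. Smad7 averaged -0.84 ± 0.71 in MUT pools and -1.27 ± 0.42 in WT pools (SD, n = 4 each), a log2 difference of 0.43 (SE 0.363, 95% interval -0.41 to 1.26, adjusted p = 0.653 in limma). Within slides 1, 2 and 3 it was 1.29, -0.018 and -0.11, and it was 0.11 without MUT replicate 3.

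**Figure D2:**
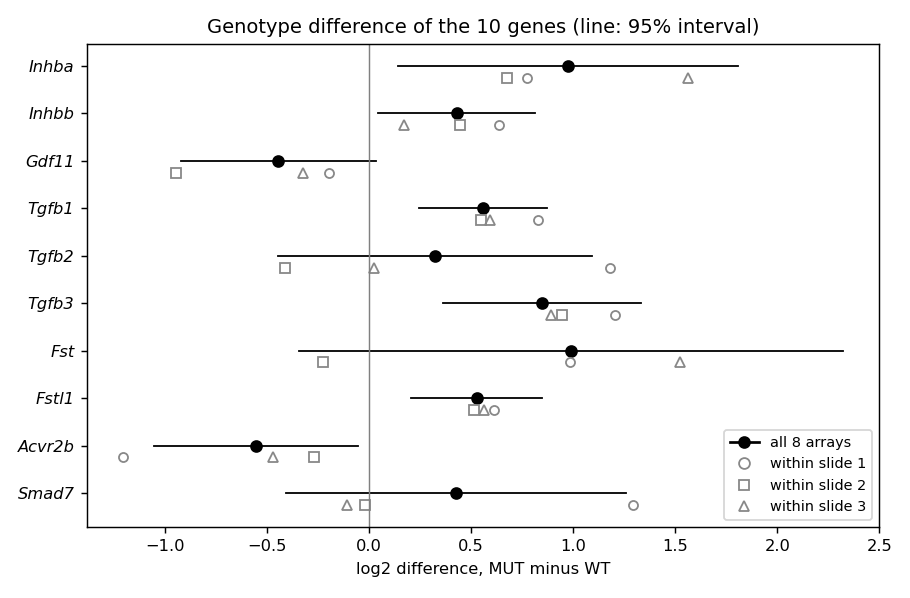
Log2 difference, MUT minus WT, of each gene (horizontal axis), with filled points and lines for the value over 8 arrays and its 95% interval, and open shapes for the values within slides 1, 2 and 3. All 3 slides give values above 0 for Inhba, Inhbb, Tgfb1, Tgfb3 and Fstl1 and below 0 for Gdf11 and Acvr2b, while the slides of Tgfb2, Fst and Smad7 fall on both sides of 0.

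The slides gave 1 sign for 7 of the 10 genes, as the plot of differences with intervals shows, and both signs for Tgfb2, Fst and Smad7. Over all genes with values on every array, 40.1% had 1 sign on the 3 slides. Slide 1 held 1 MUT and 1 WT array, slide 2 held 2 MUT arrays and 1 WT array, and slide 3 held 1 MUT array and 2 WT arrays, so that each value within a slide rests on a single array in at least 1 genotype. For all 10 genes the difference was smaller in size with normexp background correction and quantile normalization, changed together, and kept its sign under that setting. The log2 difference there was 0.15 for Fst, 0.63 for Inhba, 0.23 for Inhbb and -0.14 for Gdf11. It was 0.45 for Tgfb1, 0.27 for Tgfb2, 0.76 for Tgfb3, 0.48 for Fstl1, -0.54 for Acvr2b and 0.38 for Smad7. The signs of Fst and Inhbb each turned under 1 other alternative, given below.

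Whether related genes differed unequally was asked for 5 pairs, by the difference between the 2 genes within each array. For Tgfb1 and Tgfb3 the difference within an array, Tgfb1 minus Tgfb3, changed by -0.29 (SE 0.132) in MUT against WT pools, with an exact permutation p of 0.114. The value was 0.24 (SE 0.425, exact p = 0.571) for Tgfb1 minus Tgfb2 and -0.53 (SE 0.467, exact p = 0.371) for Tgfb2 minus Tgfb3. It was 0.54 (SE 0.540, exact p = 0.371) for Inhba minus Inhbb and 0.46 (SE 0.721, exact p = 0.571) for Fst minus Fstl1. None passed, with adjusted p = 0.571 for all 5 (exact permutation tests adjusted over the pairs). With 4 arrays per genotype the design left little room to pass: 1 pair alone at the smallest exact p would have an adjusted p of 0.143, and 3 pairs at that value would be needed.

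**Figure D3:**
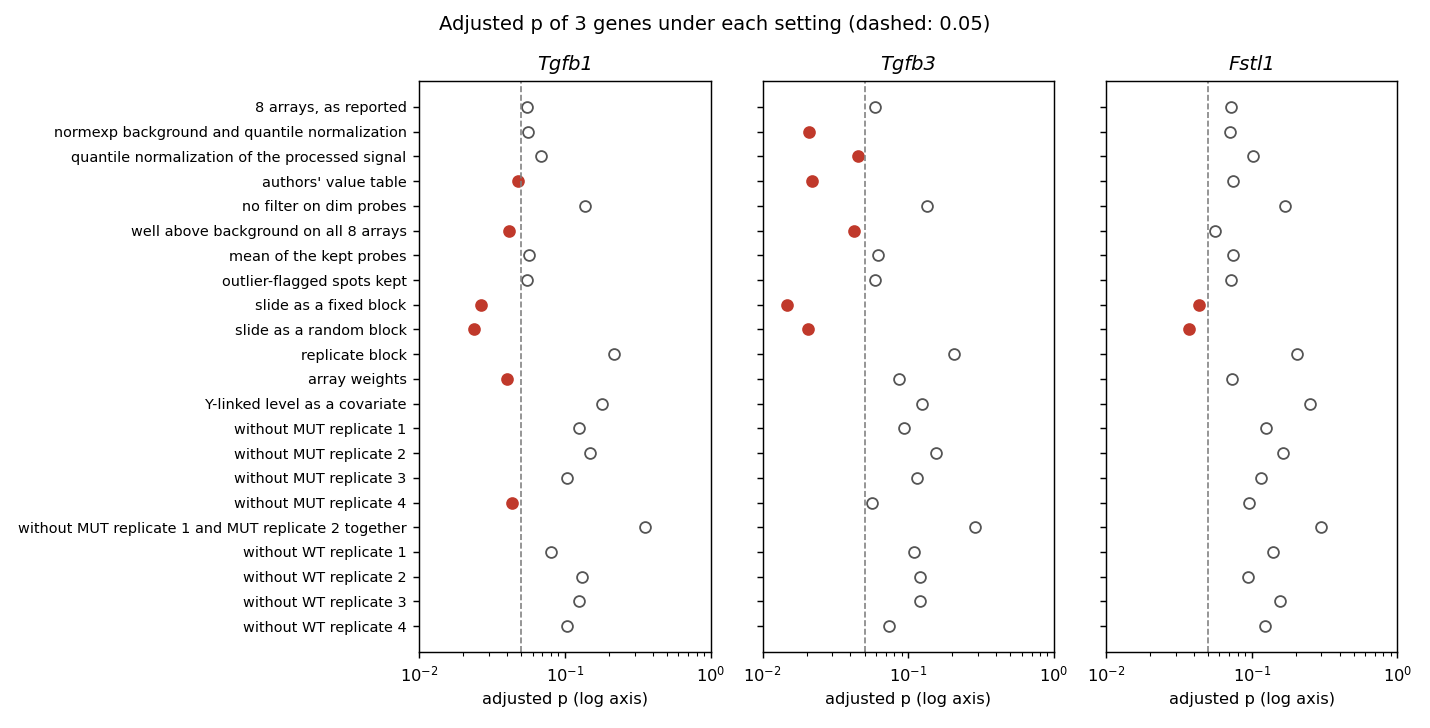
Adjusted p in limma (horizontal log axis) of Tgfb1, Tgfb3 and Fstl1 under each processing setting (vertical axis), with filled points below 0.05, marked by the dashed line. Of 21 alternatives, Tgfb1 and Tgfb3 each passed under 6 and Fstl1 under 2.

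The call of 3 genes depended on the setting, as the plot of adjusted p by setting shows. Tgfb1 had adjusted p between 0.0237 and 0.353, Tgfb3 between 0.0148 and 0.289 and Fstl1 between 0.0370 and 0.298 over 21 alternatives in limma. Their log2 differences stayed above 0 in all 21, at 0.45 to 0.70 for Tgfb1, 0.58 to 1.23 for Tgfb3 and 0.35 to 0.61 for Fstl1. Without MUT replicates 1 and 2, where liver plasma protein genes were highest, none of the 10 passed in limma (4 of 10 had an unadjusted p under 0.05), and none of all genes tested did (2258 had an unadjusted p under 0.05).

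Other genes of the pathway were taken from 5 lists with 67 genes, of which 61 were tested. In all, 5 rose, 2 fell and 54 did not pass, so that 11.5% were called, against 5.37% of all genes tested. The lists were chosen with earlier results of these data known, so their shares are a description and not a test. MUT means were higher for 45 of the 61, with a median log2 difference of 0.20, against 52.8% and 0.016 over all genes tested. Among those that rose were 2 proteins that hold Tgf-beta in its latent complex, a co-receptor and 2 response genes, and an integrin subunit that activates latent Tgf-beta and a cell cycle inhibitor fell. These calls were made with all 8 arrays, and fits that left out 1 array called between 1 and 3 pathway genes, Cdkn1a in each.

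None of the 9 other ligands tested passed in limma (1 had an unadjusted p under 0.05), and their median difference was 0.30. The highest values were those of Gdf9, an oocyte ligand, at 0.73 (adjusted p = 0.215 in limma), and Gdf15, a stress-induced ligand, at 0.49 (adjusted p = 0.381 in limma). The most negative values were those of Inha, the inhibin alpha subunit, at -0.11 (adjusted p = 0.747 in limma), and Lefty2, a Nodal antagonist, at -0.078 (adjusted p = 0.959 in limma). Gdf3, Inhbc and Mstn did not pass the filter on dim probes.

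Among 10 receptors and co-receptors, with a median of 0.24, Eng alone passed. Differences in this list ran from -0.77 to 0.54, with 7 above 0 and 3 below 0. Eng encodes endoglin, a Tgf-beta co-receptor of endothelium, and is also in the list of endothelium markers. Its log2 signals were 1.22, 1.50, 1.19 and 1.10 in MUT replicates 1 to 4, against 0.61, 0.80, 0.57 and 0.84 in WT replicates 1 to 4. The genotypes did not overlap, and Eng rose by 0.54 (SE 0.127, adjusted p = 0.0480 in limma). Leaving out any 1 array ended the call, at adjusted p between 0.0592 and 0.117 in limma.

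Among 17 antagonists and latency genes, with a median of 0.13, 2 rose and 1 fell. Ltbp4, a latent Tgf-beta binding protein, had log2 signals of 4.76, 5.13, 4.61 and 4.71 in MUT replicates 1 to 4, against 4.07, 4.08, 3.83 and 4.25 in WT replicates 1 to 4, without overlap. It rose by 0.74 (SE 0.149, adjusted p = 0.0291 in limma) and was at 0.52, 0.90 and 0.97 within slides 1, 2 and 3. Ltbp3, a second protein of this family, had 2.37, 2.53, 2.62 and 2.38 in MUT replicates 1 to 4, against 1.93, 1.96, 1.69 and 2.11 in WT replicates 1 to 4. It rose by 0.55 (SE 0.124, adjusted p = 0.0425 in limma), again without overlap. Leaving out 1 array kept the call of Ltbp4 in 2 of 8 fits and that of Ltbp3 in none.

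Itgb6 encodes the beta subunit of an epithelial integrin that activates latent Tgf-beta. Its log2 signals were -4.68, -7.30, -6.40 and -6.49 in MUT replicates 1 to 4, against -3.69, -4.34, -2.38 and -4.11 in WT replicates 1 to 4. Only 1 MUT array was well above background, against all 4 WT arrays. Itgb6 fell (fitted log2 difference -2.58, SE 0.606, adjusted p = 0.0487 in limma), but with 3 MUT arrays near background the size of the fall was not well measured. On the authors' deposited value table the difference was -0.48 (adjusted p = 0.103 in limma). Leaving out 1 array kept the call in 1 of 8 fits, at adjusted p between 0.0317 and 0.123 in limma. The 20 epithelium markers had a median log2 difference of -2.13.

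None of 14 Smads and cofactors passed in limma (1 had an unadjusted p under 0.05), with a median of 0.14. Smurf1, a ubiquitin ligase, was at 0.47 (adjusted p = 0.319 in limma), and Pmepa1, a feedback inhibitor, at 0.45 (adjusted p = 0.295 in limma). Tgif1, a co-repressor, was at -0.13 (adjusted p = 0.680 in limma), and Trim33, a Smad4 regulator, at -0.048 (adjusted p = 0.959 in limma).

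Among 12 response genes, with a median of 0.42, 2 rose and 1 fell. Cdkn1a, which encodes the cell cycle inhibitor p21, had log2 signals of -2.21, -2.25, -2.47 and -1.76 in MUT replicates 1 to 4, against 0.24, -0.54, -0.43 and -0.27 in WT replicates 1 to 4. The genotypes lay far apart, and Cdkn1a fell by 1.92 (SE 0.213, 95% interval -2.41 to -1.44), or 3.80-fold, with an adjusted p of 0.00812 in limma. It was at -1.93, -1.55 and -2.24 within slides 1, 2 and 3 and passed under 19 of 21 alternatives, including all 8 that left out 1 array. It did not pass with the Y-linked level as a covariate (adjusted p = 0.108 in limma) or without MUT replicates 1 and 2 (adjusted p = 0.104 in limma).

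Tgfb1i1, which encodes the adaptor Hic-5, had log2 signals of 2.49, 2.73, 2.55 and 2.34 in MUT replicates 1 to 4, against 1.81, 2.12, 1.85 and 2.07 in WT replicates 1 to 4. It rose by 0.57 (SE 0.127, adjusted p = 0.0417 in limma). Col1a2, a collagen chain that is also in the list of mesenchyme markers, had 7.41, 7.57, 7.22 and 7.24 in MUT replicates 1 to 4, against 6.76, 6.81, 6.33 and 6.86 in WT replicates 1 to 4. Neither gene overlapped between genotypes. Col1a2 rose by 0.67 (SE 0.151, adjusted p = 0.0430 in limma), but its kept probes disagreed, and their mean gave 0.17 (adjusted p = 0.883 in limma). Leaving out 1 array kept the call of Tgfb1i1 in 1 of 8 fits and that of Col1a2 in none.

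**Figure D4:**
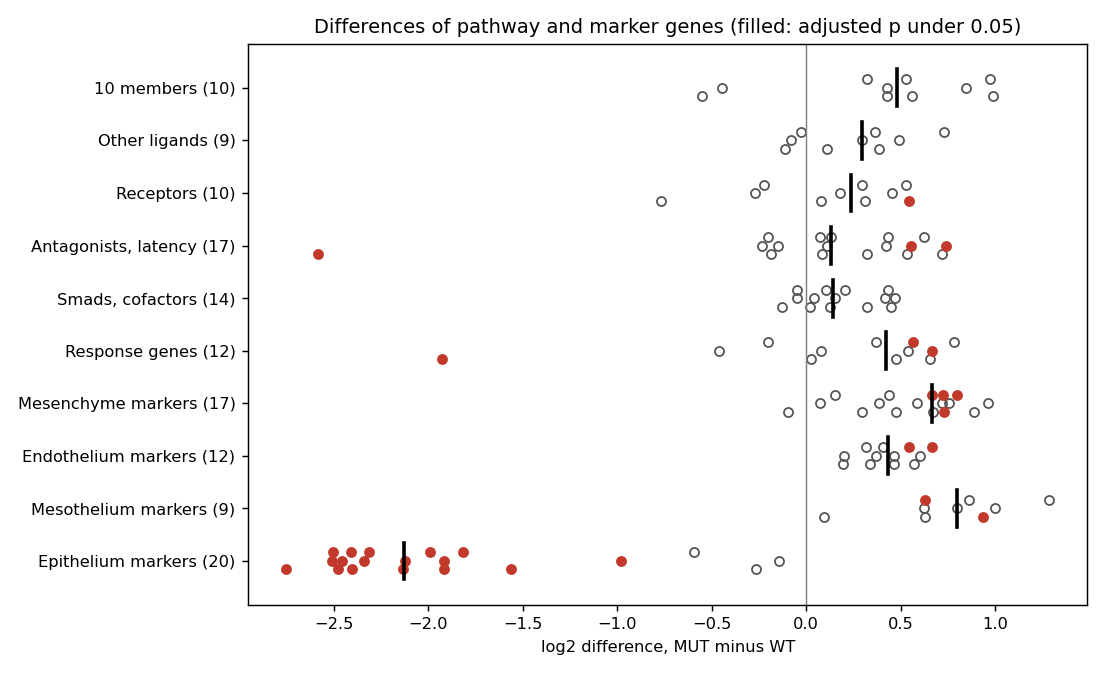
Log2 difference, MUT minus WT (horizontal axis), of the 10 genes, of the 5 lists of other pathway genes and of 4 marker lists, with the number of genes tested in brackets. Each point is a gene, filled where the adjusted p in limma was under 0.05, and black bars are medians. The medians are 0.48 for the 10 genes, 0.67 for mesenchyme markers and -2.13 for epithelium markers.

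The plot of differences by list sets the 10 genes beside the other lists: their median of 0.48 lay between those of the endothelium markers, 0.44, and the mesenchyme markers, 0.67. Medians were also above 0 for macrophage and leukocyte markers, 0.63 and not plotted, and for mesothelium markers, 0.80. This is a description of these lists, which share arrays and some genes.

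The genes whose pattern over the 8 arrays was nearest to that of Fst and Inhba, the 2 genes with the largest differences in processed signal, were found by the root mean square distance of centred log2 signals. For Inhba they were Anxa1 at 0.264, Hpcal4 at 0.286 and Adgrl4 at 0.286. For Fst they were Lhfpl1 at 0.283, Cst12 at 0.394 and Fut2 at 0.408, a pattern that rests on values near background, since Fst was well above background on 3 MUT arrays and 1 WT array. None of these 6 passed the test, with adjusted p between 0.0791 and 0.764 in limma.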

How the data were processed

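RNA of 4 MUT and 4 WT pools was measured on single-colour Agilent arrays. Per the file headers, the deposited processed signal is an intensity from Feature Extraction 9.5.3.1, corrected for background and spatial trend array by array and not normalized between arrays. Spot means and local backgrounds were deposited as raw intensity readings. The deposited quality columns hold flags, other than a measurement. The authors' deposited value table holds intensity values on a linear scale, not centred and with no direction, for 33067 features and no control spot, with a median of 227 on every array. Its rows were matched by spot row number, with rank correlations to the mean signal of at least 0.999. The submitters' processing notes name limma without a version; the background method and filter of that table are not given in the sources used here.

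Control spots (1639 of 45018) and outlier spots were left out. Log2 processed signal had the array's 75th percentile subtracted, and spots were averaged per probe. Probes well above background on at least 4 of 8 arrays were kept (27386), and each gene was its kept probe with the highest mean. RefSeq accessions named 23374 probes, a shared file name with such a probe named 4500, and the file's own name was kept for 13300. MUT and WT were compared in limma 3.58.1 under R 4.3.3 by a two-sided moderated test (lmFit, eBayes). Adjustment was by Benjamini-Hochberg over 18503 genes, at a threshold of 0.05. The fit was tested on simulated data. Single values and pairs had two-sided exact permutation tests over 70 assignments. Other tools were the data.table package (1.17.8), Python 3.11.15, pandas 2.3.3 and matplotlib 3.10.9. Probe sequences and mm8 positions are those of the scanner files; no mm8 annotation was used to place them in exons.

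The rule for naming takes the 10 genes, pathway genes past the threshold, otherwise the 2 highest and 2 lowest differences of a list, Sox9, and the 3 genes nearest in pattern to each of the 2 members with the largest difference. The members and lists were chosen with earlier results of these data known. Alternatives were the background correction, the normalization, the authors' table, the filter, the choice of probe, outlier spots, slide, replicate number, array weights, the Y-linked level, and leaving out arrays.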

Additional observations from a re-analysis of the deposited data

How the results depend on the processing

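Of the 10 genes, 0 passed with all 8 arrays, 1 with normexp background and quantile normalization (Tgfb3), 1 with quantile normalization of the processed signal (Tgfb3), 2 on the authors' value table (Tgfb1 and Tgfb3), 2 where probes had to be well above background on all 8 arrays (Tgfb1 and Tgfb3), 3 with slide as a fixed block, 1 with array weights (Tgfb1), and 3 with slide as a random block; leaving out 1 array gave 0 to 1, Tgfb1 passing without MUT replicate 4 (adjusted p = 0.0433 in limma). The pathway genes past the threshold, 7 with all 8 arrays, were 1 with no filter on dim probes, 4 with the mean of the kept probes, 1 with the replicate block, 0 with the Y-linked level as a covariate (17 had an unadjusted p under 0.05 in limma), 0 without MUT replicates 1 and 2 together (12 had one; an alternative chosen after seeing the data), and 1 to 3 when leaving out 1 array. Same-numbered MUT and WT arrays did not deviate together (correlations of -0.35, -0.29, -0.0050 and 0.085). Whether same-numbered pools shared litters cannot be told from these values. The replicate block called 340 of all genes, against 994 without it, and none of the 10. Over all genes, calls were 419 with no filter, 1292 and 1529 with slide as a fixed and a random block, 1711 with array weights, 2 with the Y-linked level as a covariate, 0 without MUT replicates 1 and 2, and 395 to 976 when leaving out 1 array. Requiring probes well above background on all 8 arrays called 1053 of 15813 genes (6.66%). Quantile normalization of the processed signal called 948 (5.12%) and the mean of the kept probes 909 (4.91%). Shares were 6.9% with normexp, 9.25% with array weights and 5.27% without MUT replicate 4. Of the calls, 557 of 1311 were higher in MUT pools on the authors' table and 551 of 1276 with normexp, against 288 of 994.

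Signs turned as follows, none of them past the threshold, and the cause was not tested. Inhbb was at -0.11 with the mean of the kept probes, where the dim second probe enters. With the Y-linked level as a covariate, Tgfb2 was at -0.23, Fst at -0.32, Gdf15 at -0.20, Gdf9 at -0.0070, Tgif1 at 0.011, Trim33 at 0.14 and Lefty2 at 0.91. Lefty2 was also at 0.0029 with normexp, 0.048 with quantile normalization and 0.094 with slide as a fixed block, and between -0.37 and 0.093 when leaving out 1 array; Trim33 was between -0.21 and 0.12 when leaving out 1 array and 0.14 without MUT replicates 1 and 2. Fst minus Fstl1 was -0.33 with normexp and -0.27 on the authors' table. Tgfb1 minus Tgfb2 was -0.24 without MUT replicates 1 and 2, and between -0.020 and 0.48 when leaving out 1 array. No sign of Inhba, Gdf11, Tgfb1, Tgfb3, Fstl1, Acvr2b or Smad7 turned under any alternative run. Sox9 did not pass with no filter, the replicate block, the Y-linked level as a covariate (adjusted p = 0.260 in limma), 4 of the 8 fits without 1 array or without MUT replicates 1 and 2. Signal near background limits Fst, Itgb6 and the second Inhbb probe. All 22 sets of 4 values examined for a far-off array, the 10 genes and Sox9 in each genotype, held none.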
